A study of Mus musculus with 24 samples.

Results

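RNA sequencing of brain and liver was examined for 8 genes of the PPAR-alpha and fatty acid oxidation programme, Ppara, Cpt1a, Acadm, Ehhadh, Cyp4a10, Cyp4a14, Pdk4 and Fgf21. They were found by matching the Ensembl identifiers of the 2 tables of normalised counts to these symbols, and each symbol matched 1 of 55469 rows in each table. The question was whether losing 1 phenylalanine tRNA gene altered these transcripts in mice. By the study's general description, the animals were male C57BL/6N mice aged 10 weeks, fed normal chow without restriction under a 12-h light and 12-h dark schedule. The study as a whole used both sexes, and the sample titles do not state the sex. WT mice carried no deletion, while mice named tRNA-Phe-1-1-/-, mice named tRNA-Phe-2-1-/- and those named tRNA-Phe-3-1-/- were each homozygous for a germline CRISPR-Cas9 deletion of that gene. The methods describe WT and mutant animals as matched for age and litter, but also state that the mice used came from different litters. The sample titles give no litter. Each genotype had 3 replicates (A, B and C) in each tissue, 24 samples in all, and a sample was a piece of whole tissue, so fewer cells of a type and less RNA per cell cannot be told apart. Every list of 3 values below is in the order A, B and C.

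PPAR-alpha, the product of Ppara, is a nuclear receptor that binds fatty acids and, paired with the retinoid X receptor, switches on genes that move fatty acids into mitochondria and peroxisomes and burn them. In the liver it leads the response to fasting. Cpt1a makes the carnitine palmitoyltransferase that admits long-chain fatty acids to mitochondria. Acadm makes the medium-chain acyl-CoA dehydrogenase, the first step of mitochondrial β-oxidation for medium chains, and Ehhadh the bifunctional enzyme of peroxisomal β-oxidation. Cyp4a10 and Cyp4a14 make cytochrome P450 enzymes that hydroxylate the far (omega) end of fatty acids. Pdk4 makes a kinase that shuts the pyruvate dehydrogenase complex and so spares glucose while fat is burnt, and Fgf21 makes a hormone that the liver releases in fasting and under stress.

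On GRCm38.p6, the build of the authors' alignment, RefSeq places Ppara at chr15:85734910-85806851, Cpt1a at chr19:3322326-3385735, Acadm at chr3:153922353-153944643, Ehhadh at chr16:21761285-21787834, Cyp4a10 at chr4:115518287-115533649, Cyp4a14 at chr4:115486200-115496158, Pdk4 at chr6:5483351-5496278 and Fgf21 at chr7:45613890-45615490. Promoter windows from RefSeq were matched for 6 members (Ppara, Cpt1a, Acadm, Ehhadh, Pdk4 and Fgf21), and the 250 bases before the transcript start were searched on both strands. The motif searched was the PPAR response element, a direct repeat of 2 half-sites with 1 base between them, as 2 copies of AGGTCA and in a looser form in which the fourth base of each copy is free, and the half-site AGGTCA alone, which lies within the first. The strict repeat was present in 0.0335% and the loose one in 0.338% of all 32851 windows of this length, and neither was in the 6 members' windows. The half-site was present in 14.0% of all windows and in 2 of the 6, Cpt1a (94 bases before the start) and Acadm (249 bases before it), in both on the opposite strand. These matches of letters are a description only, and the windows belong to the start of 1 RefSeq transcript per gene, which for Cpt1a and Ppara lies inside the span given above. The 2 windows with the half-site and those of Pdk4 and Ehhadh, whose transcripts fell most in tRNA-Phe-1-1-/- livers among the members called, read as follows, 5′ to 3′ in the direction of the gene with the half-site in capitals.
Cpt1a, chr19:3323051-3323300, plus strand: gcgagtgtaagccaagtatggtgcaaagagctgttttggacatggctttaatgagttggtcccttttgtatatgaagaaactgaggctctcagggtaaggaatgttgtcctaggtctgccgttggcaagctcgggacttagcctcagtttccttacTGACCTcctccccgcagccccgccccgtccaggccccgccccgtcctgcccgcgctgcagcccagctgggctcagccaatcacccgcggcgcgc
Acadm, chr3:153944644-153944893, minus strand: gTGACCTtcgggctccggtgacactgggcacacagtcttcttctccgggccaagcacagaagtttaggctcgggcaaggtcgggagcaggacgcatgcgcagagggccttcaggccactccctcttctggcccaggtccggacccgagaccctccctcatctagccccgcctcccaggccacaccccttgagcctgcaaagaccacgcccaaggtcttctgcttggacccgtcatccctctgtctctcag
Pdk4, chr6:5496279-5496528, minus strand: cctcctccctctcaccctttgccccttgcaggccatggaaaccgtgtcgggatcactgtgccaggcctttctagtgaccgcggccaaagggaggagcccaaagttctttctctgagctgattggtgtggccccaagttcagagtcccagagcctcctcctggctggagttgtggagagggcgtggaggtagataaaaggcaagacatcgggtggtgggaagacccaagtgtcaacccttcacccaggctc
Ehhadh, chr16:21787835-21788084, minus strand: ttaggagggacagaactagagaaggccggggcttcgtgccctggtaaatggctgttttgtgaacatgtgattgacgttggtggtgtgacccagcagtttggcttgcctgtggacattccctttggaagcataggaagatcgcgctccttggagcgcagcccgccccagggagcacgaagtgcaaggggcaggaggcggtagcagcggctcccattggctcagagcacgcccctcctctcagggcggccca

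Depth, recovered from the normalised counts, was 32276896 to 51584522 reads per liver sample and 30365760 to 46225360 per brain sample. Snap25, a synaptic gene of neurons, lay between 32419 and 67238 in the brains but at most 3.38 in the livers. Among the other neuron markers, Map2 reached 125 and Syt1 440 in the livers. The 5 neuron markers summed to between 112282 and 182093 in the brains and between 120 and 523 in the livers. None of 6 hepatocyte markers passed the test in any line against WT in the livers. Between lines 1 of the 6 did, Tat, a glucocorticoid-induced enzyme gene, which was higher in tRNA-Phe-1-1-/- livers than in those of tRNA-Phe-2-1-/- mice (log2 fold change 1.51 ± 0.30 (SE), adjusted p = 0.00693) or tRNA-Phe-3-1-/- mice (log2 fold change 1.19 ± 0.30 (SE), adjusted p = 0.0217). The deleted tRNA genes were not analysed here, so the labels were not checked by them. Of the 4 adipocyte markers, Lep was at 0 and Adipoq at no more than 1.98 in the livers. The highest sum of the 4 was 8.79 in WT, 32.7 in tRNA-Phe-1-1-/-, 22.8 in tRNA-Phe-2-1-/- and 11.3 in tRNA-Phe-3-1-/- livers. Brain samples held traces of Alb, from 3.23 to 877 normalised counts.

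All 8 members were transcribed in WT liver. Divided by the length of the canonical transcript (GENCODE), the mean level in WT livers was 5189 ± 207 normalised counts per kilobase for Ehhadh (SD, n = 3), 4843 ± 1785 for Cyp4a14, 3895 ± 127 for Acadm, 3349 ± 266 for Cyp4a10, 1480.3 ± 84.5 for Cpt1a, 1332 ± 311 for Ppara, 200.4 ± 15.7 for Pdk4 and 149.9 ± 77.3 for Fgf21. Cyp4a14 varied so widely that it could not be separated from its neighbours in this order, and neither Cpt1a from Ppara nor Pdk4 from Fgf21 differed by more than their spread. In WT brain the order was different, with Acadm first at 429 ± 4.05 normalised counts per kilobase, then Cpt1a at 134 ± 6.81, Pdk4 at 57.2 ± 6.72, Ehhadh at 39.8 ± 7.65 and Ppara at 24 ± 6.54. Each of these exceeded the next by more than either SD. Cyp4a10, Cyp4a14 and Fgf21 were at trace levels there. The tissues were normalised separately, so levels are set side by side without a test.

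In the livers of tRNA-Phe-1-1-/- mice Pdk4 and Ehhadh were lower and Cpt1a was higher than in WT, 3 of 8 members at an adjusted p under 0.05, where 17.3% of the 15856 liver genes tested passed. Of all genes 9.08% passed as lower and 8.27% as higher in this line. In tRNA-Phe-3-1-/- livers Pdk4 was lower and Cpt1a higher, 2 of 8 against 0.883% of all genes, and in tRNA-Phe-2-1-/- livers no member passed, 0 of 8 against 0.132% (limma, with 3 of 8 at an unadjusted p under 0.05, where 14.9% of all genes were; edgeR and DESeq2 also called none). Over the 4 genotypes in 1 test, 5 members differed (Pdk4, Ehhadh, Cpt1a, Acadm and Cyp4a10), where 17.0% of all genes did. The median log2 fold change of the 8 members was -0.55 in tRNA-Phe-1-1-/-, 0.16 in tRNA-Phe-2-1-/- and 0.30 in tRNA-Phe-3-1-/- livers, beside medians of all genes between -0.01 and 0.01. The 3 comparisons share the WT samples, and 3 samples against 3 cannot reach an exact permutation p under 0.1, so the errors are those of the model across all genes. The 95% intervals given below are for single genes and are not adjusted for the number tested.

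Pdk4, the brake on pyruvate oxidation, was the member with the largest difference from WT in tRNA-Phe-1-1-/- livers and in tRNA-Phe-3-1-/- livers. Its liver values were 816, 699 and 746 normalised counts in WT, 69.6, 112 and 116 in tRNA-Phe-1-1-/-, 275, 625 and 518 in tRNA-Phe-2-1-/- and 247, 149 and 165 in tRNA-Phe-3-1-/- mice. All 9 knockout samples were below all 3 WT samples, an arrangement that 2.57% of tested liver genes showed, and the tRNA-Phe-1-1-/- samples were below every other liver sample. The fall was 7.71-fold in tRNA-Phe-1-1-/- livers (log2 fold change -2.95 ± 0.30 (SE), adjusted p = 0.000163) and 4.11-fold in tRNA-Phe-3-1-/- livers (log2 fold change -2.04 ± 0.30 (SE), adjusted p = 0.0229). In tRNA-Phe-2-1-/- livers the difference did not pass the test (log2 fold change -0.75 ± 0.30 (SE), adjusted p = 0.284, 95% interval -1.41 to -0.09). The first call held under all 23 alternatives. The tRNA-Phe-3-1-/- call was lost in 6 of 23, namely with the replicate letter as a block and without WT replicate A, B or C or tRNA-Phe-3-1-/- replicate B or C, where the adjusted p reached 0.116.

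**Figure D1:**
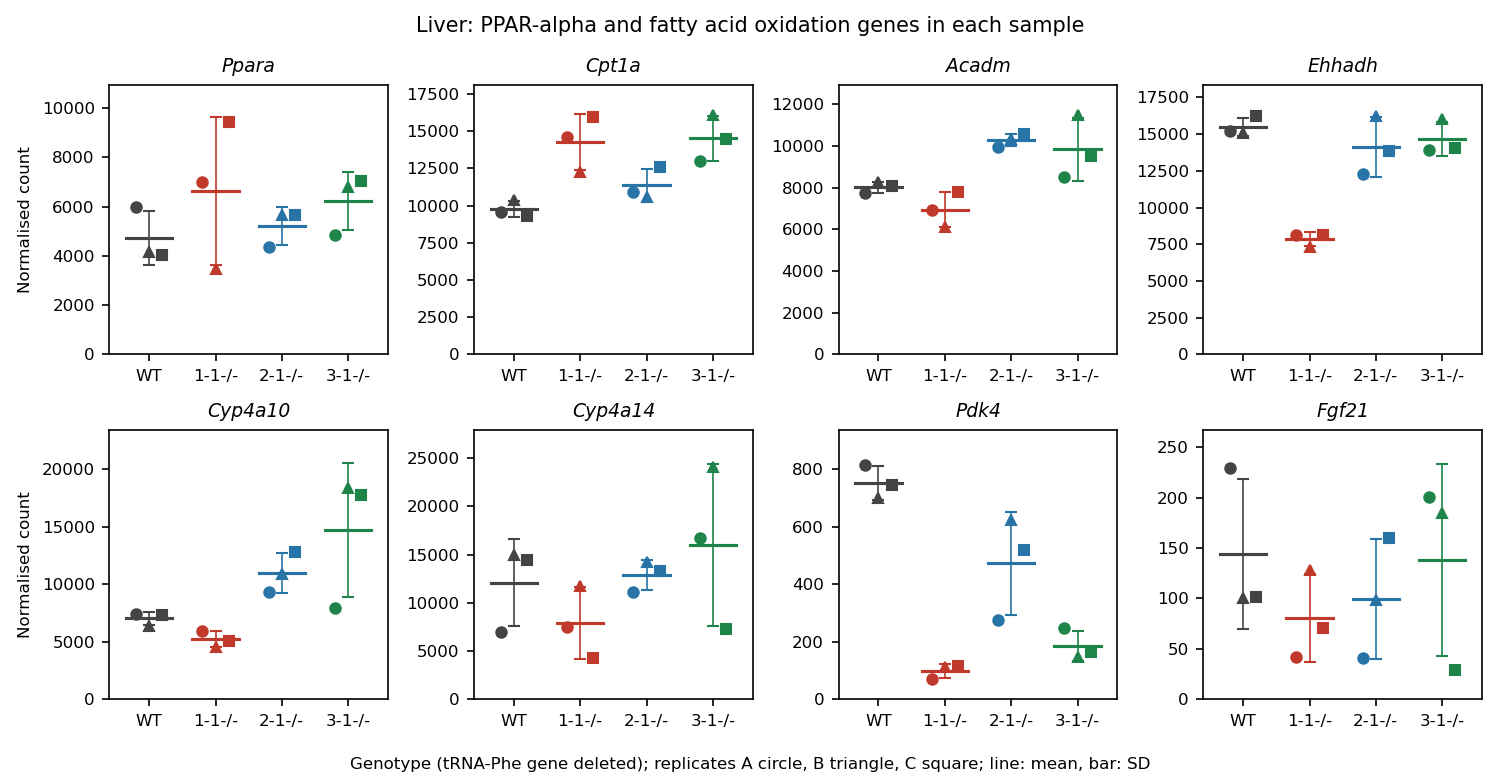
Normalised counts (vertical axes, each from 0) of the 8 members in each liver sample, by genotype (horizontal axis); symbols mark replicates A, B and C, lines the means and bars the SD of 3 samples. Pdk4 is lower in all 9 knockout samples than in WT, and Ehhadh is lower in the 3 tRNA-Phe-1-1-/- samples than in every other sample. Cyp4a10 is lowest in tRNA-Phe-1-1-/- and highest in tRNA-Phe-3-1-/- samples B and C.

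The peroxisomal and mitochondrial enzymes differed between the lines. Ehhadh was measured at 15216, 15083 and 16217 normalised counts in WT, 8123, 7329 and 8119 in tRNA-Phe-1-1-/-, 12258, 16264 and 13838 in tRNA-Phe-2-1-/- and 13927, 16017 and 14079 in tRNA-Phe-3-1-/- livers. The 3 tRNA-Phe-1-1-/- values were close together and far below all others, while the other lines overlapped WT. This 1.97-fold fall (log2 fold change -0.98 ± 0.10 (SE), adjusted p = 0.000211) held in all 23 alternatives, and tRNA-Phe-1-1-/- livers were also below tRNA-Phe-2-1-/- (log2 fold change -0.84 ± 0.10 (SE), adjusted p = 0.000587) and tRNA-Phe-3-1-/- livers (log2 fold change -0.90 ± 0.10 (SE), adjusted p = 0.000423). In the last 2 lines Ehhadh stayed near WT, with 95% intervals of -0.37 to 0.08 and -0.31 to 0.15 for the log2 fold change.

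Acadm stood at 7731, 8243 and 8075 normalised counts in WT livers, 6923, 6095 and 7796 with tRNA-Phe-1-1 lost, 9948, 10328 and 10553 with tRNA-Phe-2-1 lost and 8505, 11493 and 9514 with tRNA-Phe-3-1 lost. Every tRNA-Phe-2-1-/- value and every tRNA-Phe-3-1-/- value was above WT, while tRNA-Phe-1-1-/- overlapped WT. Of all liver genes, 25.4% in tRNA-Phe-2-1-/- and 19.9% in tRNA-Phe-3-1-/- livers did not overlap WT, in either direction. No line passed the test against WT (adjusted p = 0.221, 0.199 and 0.248 in the order of the values), but tRNA-Phe-1-1-/- livers had less Acadm than tRNA-Phe-2-1-/- (log2 fold change -0.57 ± 0.11 (SE), adjusted p = 0.00674) and tRNA-Phe-3-1-/- livers (log2 fold change -0.50 ± 0.11 (SE), adjusted p = 0.0134). The last call was lost in 1 of 23 alternatives.

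Cpt1a, the mitochondrial gate, moved opposite to Pdk4. It gave 9579, 10386 and 9318 normalised counts in WT, 14626, 12217 and 15917 in tRNA-Phe-1-1-/-, 10889.8, 10546 and 12615 in tRNA-Phe-2-1-/- and 12989.8, 16053 and 14463 in tRNA-Phe-3-1-/- livers. All 9 knockout values were above all WT values, which was the case for 2.01% of tested liver genes, with tRNA-Phe-2-1-/- nearest to WT. The rise was 1.45-fold in tRNA-Phe-1-1-/- (log2 fold change 0.54 ± 0.12 (SE), adjusted p = 0.00921) and 1.48-fold in tRNA-Phe-3-1-/- livers (log2 fold change 0.57 ± 0.12 (SE), adjusted p = 0.0476), and in tRNA-Phe-2-1-/- livers it did not pass (log2 fold change 0.21 ± 0.12 (SE), adjusted p = 0.408). The first held in all 23 alternatives, while the second was lost in 14 of them, among them edgeR and the fit of these 2 genotypes alone, with an adjusted p of up to 0.174.

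The receptor itself was not called in any liver comparison. Ppara was read at 6003, 4164 and 4028 normalised counts in WT, 7000.3, 3463 and 9455 in tRNA-Phe-1-1-/-, 4340.4, 5668 and 5675 in tRNA-Phe-2-1-/- and 4865, 6785 and 7045 in tRNA-Phe-3-1-/- livers. Both the lowest and the highest liver value came from tRNA-Phe-1-1-/- mice (replicates B and C), and all lines overlapped WT. The 95% interval of the log2 fold change ran from -0.28 to 1.07 in tRNA-Phe-1-1-/- livers (log2 fold change 0.40 ± 0.31 (SE), adjusted p = 0.414), and without tRNA-Phe-1-1-/- replicate B the adjusted p was 0.033 at a log2 fold change of 0.81. Differences from WT were 0.16 and 0.40 on the log2 scale in the other lines (adjusted p = 0.846 and 0.562).

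The omega-hydroxylases lay on either side of WT. Cyp4a10 was counted at 7403, 6415 and 7373 in WT, 5963, 4596 and 5079.6 in tRNA-Phe-1-1-/-, 9302, 10877 and 12788 in tRNA-Phe-2-1-/- and 7981, 18347 and 17751 in tRNA-Phe-3-1-/- livers (normalised counts). No knockout group overlapped WT, which was the case for 34.8, 25.4 and 19.9% of all genes in the 3 lines, with tRNA-Phe-1-1-/- below it and the other 2 lines above it, although none of these differences passed the test (adjusted p = 0.274, 0.301 and 0.106). Between lines the difference did pass, as tRNA-Phe-1-1-/- livers had 2.1-fold less Cyp4a10 than tRNA-Phe-2-1-/- (log2 fold change -1.07 ± 0.26 (SE), adjusted p = 0.0183, lost in 3 of 23 alternatives) and 2.65-fold less than tRNA-Phe-3-1-/- livers (log2 fold change -1.41 ± 0.26 (SE), adjusted p = 0.00503, held in all 23). Without tRNA-Phe-3-1-/- replicate A, whose value was near WT, or with DESeq2, the rise over WT in tRNA-Phe-3-1-/- livers passed as well. Cyp4a10 has close copies in the genome (Cyp4a31 and Cyp4a32), so its reads may be divided between them with some uncertainty.

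Cyp4a14 varied within groups more than between them, at 6966, 14944 and 14429.7 normalised counts in WT, 7504, 11798 and 4344 in tRNA-Phe-1-1-/-, 11175, 14224 and 13296 in tRNA-Phe-2-1-/- and 16712, 24056 and 7320.0 in tRNA-Phe-3-1-/- livers. All groups overlapped, and the adjusted p was 0.349, 0.894 and 0.766 against WT. Its 95% intervals were wide, from -1.64 to 0.33 on the log2 scale in tRNA-Phe-1-1-/- livers, which includes a fall of the size measured for Ehhadh.

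Fgf21, the fasting hormone, had the lowest mean count of the members in WT livers. It was found at 229.6, 101 and 101 normalised counts in WT, 42.3, 128 and 70.6 in tRNA-Phe-1-1-/-, 40.9, 99 and 159 in tRNA-Phe-2-1-/- and 201, 185 and 29.2 in tRNA-Phe-3-1-/- livers. The values were spread widely within every genotype, and the groups overlapped. The log2 fold changes against WT were -0.86, -0.61 and -0.36 with an SE of 0.73, and the adjusted p was 0.457, 0.728 and 0.846.

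**Figure D2:**
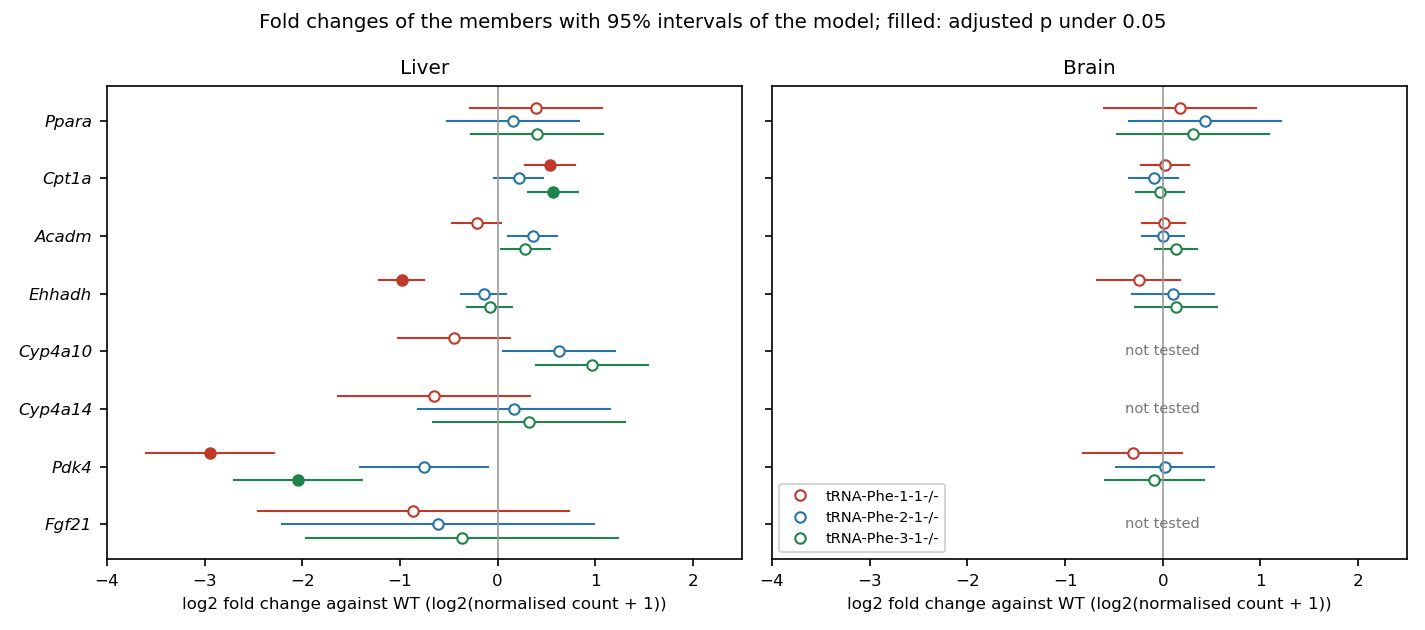
Log2 fold change against WT (horizontal axis) of each member (vertical axis) in liver (left) and brain (right), for the 3 knockout lines; points are estimates, lines 95% intervals of the limma model and filled points have an adjusted p under 0.05. Pdk4, Ehhadh and Cpt1a are filled for tRNA-Phe-1-1-/- liver, Pdk4 and Cpt1a for tRNA-Phe-3-1-/- liver, and no point is filled in the brain.

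Set against each other, tRNA-Phe-1-1-/- livers differed from both other lines. Comparing tRNA-Phe-1-1-/- livers with those of tRNA-Phe-2-1-/- mice, 4 of 8 members differed, Pdk4 (log2 fold change -2.20 ± 0.30 (SE), adjusted p = 0.000977) together with Ehhadh, Acadm and Cyp4a10, and all 4 were lower in tRNA-Phe-1-1-/-. Across all liver genes 15.9% passed in this comparison and 8.53% passed as lower. Comparing tRNA-Phe-1-1-/- livers with those of tRNA-Phe-3-1-/- mice, 3 of 8 differed (Ehhadh, Acadm and Cyp4a10), again lower in tRNA-Phe-1-1-/-, where 16.1% of all genes passed and 8.63% as lower. Pdk4 was just short of the threshold there (log2 fold change -0.91 ± 0.30 (SE), adjusted p = 0.0602). Comparing tRNA-Phe-2-1-/- livers with those of tRNA-Phe-3-1-/- mice, limma called 0 of 8 members and 0.0% of all genes, with 6.68% at an unadjusted p under 0.05, and edgeR also called no member. Pdk4 was 2.44-fold higher in tRNA-Phe-2-1-/- livers by limma without passing (log2 fold change 1.29 ± 0.30 (SE), adjusted p = 0.644), and was called by DESeq2 alone.

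A list of 89 other genes of the pathway gave the surroundings of the members, and 88 were tested in the liver. In tRNA-Phe-1-1-/- livers 27 passed against WT, 7 higher and 20 lower, with a median log2 fold change of -0.16 over the 88, where 17.3% of all liver genes passed. The number was 17 without WT replicate C or without tRNA-Phe-1-1-/- replicate A. In tRNA-Phe-2-1-/- livers, as in tRNA-Phe-3-1-/- livers, 2 of 88 passed, both lower (Ppard and Pdk2 in each line), with medians of 0.13 and 0.08.

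Among receptors and their partners 1 gene fell in all 3 lines. Ppard, which encodes the related receptor PPAR-delta, gave 675, 997 and 968 normalised counts in WT, 134, 168 and 159 in tRNA-Phe-1-1-/-, 253, 132 and 108 in tRNA-Phe-2-1-/- and 165, 67.5 and 71.4 in tRNA-Phe-3-1-/- livers. All 9 knockout samples were far below WT, and all 3 falls passed (log2 fold change -2.50, -2.49 and -3.21, adjusted p = 0.0011, 0.033 and 0.00804). Those of the last 2 lines were lost in 8 and 2 of 23 alternatives. Lpin1, a phosphatase that also works as a partner of PPAR-alpha, rose in tRNA-Phe-1-1-/- livers (log2 fold change 2.47 ± 0.37 (SE), adjusted p = 0.00127), as did Rxra, the retinoid X receptor that pairs with PPAR-alpha (log2 fold change 0.73 ± 0.14 (SE), adjusted p = 0.00476). Of the 11 genes tested on this list 4 passed in that line, 2 higher and 2 lower.

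Among genes for fatty acid uptake and activation 4 of 11 fell in tRNA-Phe-1-1-/- livers and none rose. Acsl5 and Acsl1, which join coenzyme A to long-chain fatty acids, fell by 1.20 and 0.90 on the log2 scale (adjusted p = 0.00029 and 0.0279), and Dbi, the acyl-CoA binding protein, by 0.42 (adjusted p = 0.0105). Acsl1 was lost in 6 of 23 alternatives. In the carnitine shuttle, Slc22a5, the carnitine importer, rose and Crat, carnitine acetyltransferase, fell (log2 fold change 0.65 and -0.84, adjusted p = 0.0344 and 0.0267), 2 of 6 tested, and these calls were lost in 6 and 5 of 23 alternatives.

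Of 15 other peroxisomal genes 6 were lower and none was higher in tRNA-Phe-1-1-/- livers. They included Abcd2, a peroxisomal transporter of fatty acyl-CoA, at 794, 2384 and 2454 normalised counts in WT and 125, 212 and 53.2 in tRNA-Phe-1-1-/- livers (log2 fold change -3.88 ± 0.64 (SE), adjusted p = 0.00231). Crot, the peroxisomal carnitine octanoyltransferase, and Acot4, a peroxisomal acyl-CoA thioesterase, fell as well (log2 fold change -0.85 and -1.19, adjusted p = 0.00201 and 0.00296). For omega oxidation 1 of 5 genes passed, Cyp4a32 (log2 fold change -1.32 ± 0.13 (SE), adjusted p = 0.000156).

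Of 15 other genes of mitochondrial β-oxidation none passed in tRNA-Phe-1-1-/- livers against WT, the lowest adjusted p being that of Etfb, a subunit of the electron transfer flavoprotein (log2 fold change -0.20 ± 0.07 (SE), adjusted p = 0.0708), and 13 of the 15 estimates were below 0. The same genes lay above WT in 12 of 15 cases in tRNA-Phe-2-1-/- and 13 of 15 in tRNA-Phe-3-1-/- livers, without any passing. Set directly against tRNA-Phe-2-1-/- or tRNA-Phe-3-1-/- livers, tRNA-Phe-1-1-/- livers were lower for 5 of 15 genes in each comparison, where 8.53% and 8.63% of all liver genes passed as lower. Among the 5 in each were Hadha and Hadhb, the subunits of the trifunctional protein (Hadhb, log2 fold change -0.45 ± 0.10 (SE), adjusted p = 0.012 against tRNA-Phe-3-1-/-). Acadm, itself a gene of this pathway, had estimates in the same directions.

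Among ketone genes, Acat1 and Bdh1 fell in tRNA-Phe-1-1-/- livers (log2 fold change -0.40 and -0.64, adjusted p = 0.0372 and 0.0488), calls that were lost in 10 and 15 of 23 alternatives, and the other 3 of 5 did not pass. Of 7 genes for fuel choice and hormone action 4 passed in this line. Angptl4, a PPAR target that restrains lipoprotein lipase, gave 1768, 587 and 768 normalised counts in WT and 4139, 2496 and 4822 in tRNA-Phe-1-1-/- livers and rose (log2 fold change 1.99 ± 0.39 (SE), adjusted p = 0.00562), as did Fgfr1, a receptor for Fgf21 (log2 fold change 0.99, adjusted p = 0.00817), while Klb, the co-receptor for Fgf21, fell (log2 fold change -0.66, adjusted p = 0.007). Pdk2, a sister kinase of Pdk4, was lower in all 3 lines (log2 fold change -0.40, -0.80 and -0.81, adjusted p = 0.0389, 0.0348 and 0.0229). In the last 2 lines the other pathway genes called fell to 0 in some alternatives, so the Pdk2 calls there did not hold in all of them. On the list of lipid droplet genes and other targets 4 of 13 passed, with Acot2 and Plin2 lower (log2 fold change -1.07 and -0.54, adjusted p = 0.014 and 0.0269) and Pnpla2, the lipase that starts triglyceride breakdown, higher (log2 fold change 0.44 ± 0.12 (SE), adjusted p = 0.024). These 3 calls were lost in 1, 4 and 5 of 23 alternatives (Acot2, Plin2 and Pnpla2).

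**Figure D3:**
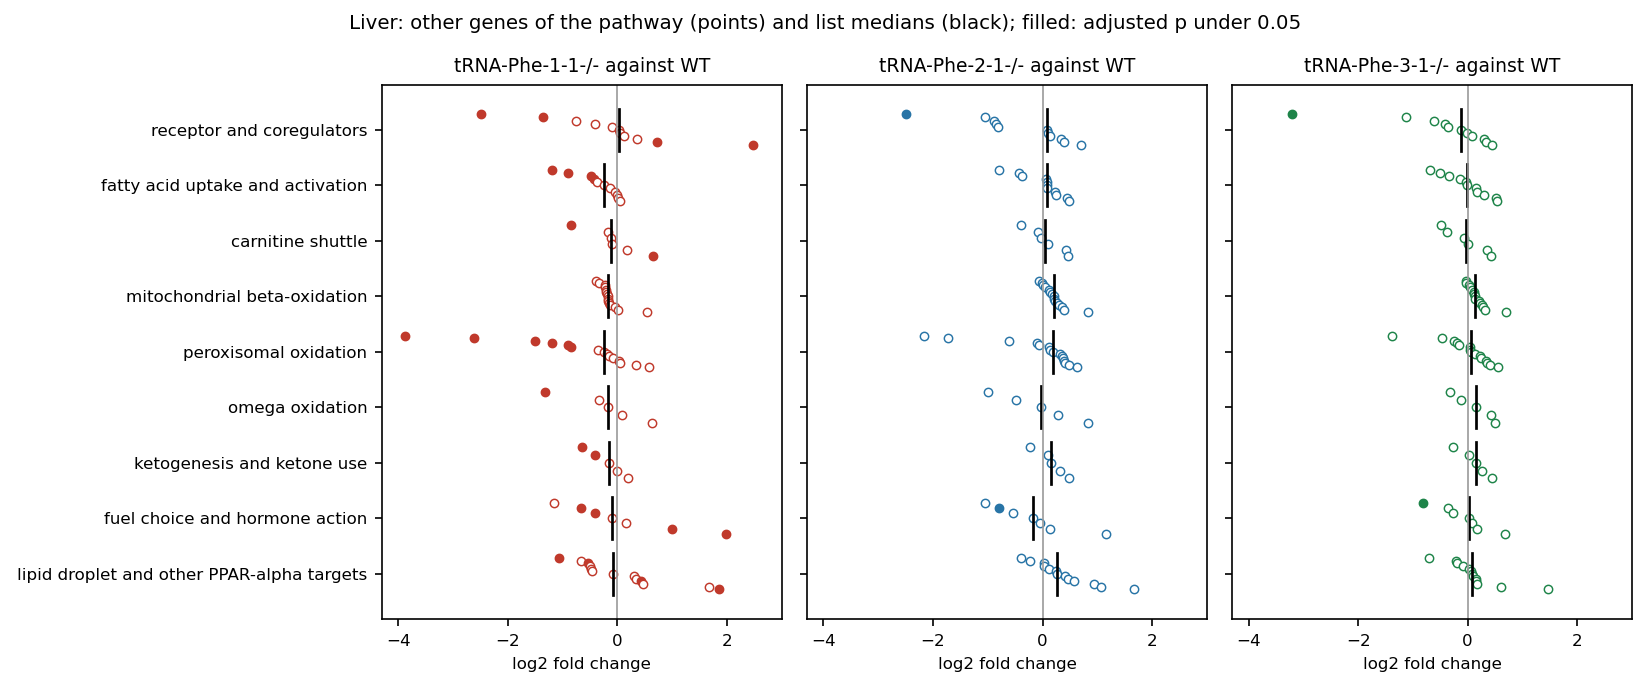
Log2 fold change against WT in the liver (horizontal axes) of 88 other genes of the pathway in 9 lists (vertical axis), with 1 panel per knockout line; each point is a gene, filled where the adjusted p is under 0.05, and black lines are list medians. In tRNA-Phe-1-1-/- livers 27 points are filled, including 6 peroxisomal genes that are all lower, and in each other line 2 are filled.

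Other programmes moved with the same samples. Clock genes, whose transcripts cycle over the day, differed, and the time of day of sampling was not given in the sources used here. Bmal1 (listed as Arntl) gave 1479, 1591 and 1889 normalised counts in WT, 98.8, 466 and 101 in tRNA-Phe-1-1-/-, 1283, 1272 and 764 in tRNA-Phe-2-1-/- and 1233, 290.3 and 433 in tRNA-Phe-3-1-/- livers. It was lowest in tRNA-Phe-1-1-/- replicates A and C and low in tRNA-Phe-3-1-/- replicates B and C, the same 2 samples of that line in which Pdk4 was lowest and Cyp4a10, Cpt1a and Ppara were highest. In tRNA-Phe-1-1-/- livers Cpt1a (14626, 12217 and 15917) and Ppara (7000.3, 3463 and 9455) were likewise highest in replicates A and C. Cyp4a10 was also highest in those samples, but it was below WT in every replicate of that line. Pdk4 did not follow this order there, being nearly equal in replicates B and C although Bmal1 was not. All 5 genes in phase with Bmal1 fell in tRNA-Phe-1-1-/- livers (Npas2, log2 fold change -5.30 ± 0.74 (SE), adjusted p = 0.000915) and 7 of 10 in the phase of Dbp rose (Ciart, log2 fold change 5.46 ± 0.70 (SE), adjusted p = 0.000605). The summed level of the latter was 3504 to 5596 normalised counts in WT, 11151 to 23384 in tRNA-Phe-1-1-/-, 3775 to 8376 in tRNA-Phe-2-1-/- and 6225 to 15368 in tRNA-Phe-3-1-/- livers. The part of the clock genes in the differences of the members was not tested.

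Genes that respond to fasting and glucocorticoids differed too, with 4 of 8 higher in tRNA-Phe-1-1-/- livers and a summed level of 146903 to 214837 normalised counts there, beside 86197 to 99589 in WT, 52867 to 101428 in tRNA-Phe-2-1-/- and 65036 to 100449 in tRNA-Phe-3-1-/- livers (Fkbp5, log2 fold change 2.18 ± 0.21 (SE), adjusted p = 0.000121). In both tissues this list shared Per1 with the clock genes in the phase of Dbp and Tat with the hepatocyte markers, so the counts are not separate. All 6 acute phase genes, which the liver makes in inflammation, were higher in tRNA-Phe-1-1-/- livers, from 387686 to 699528 in sum beside 223840.0 to 239870.0 in WT (Hp, log2 fold change 1.64 ± 0.19 (SE), adjusted p = 0.000362). Of the integrated stress response 1 of 8 genes rose (Chac1, log2 fold change 1.11 ± 0.35 (SE), adjusted p = 0.0474, lost in 13 of 23 alternatives). The lists for cells other than hepatocytes had at most 1 gene in either direction in this line, and hepatocyte genes had 0 of 6. However, hepatocyte markers, with Alb the largest part, summed to 2549040 to 3034600 there beside 3091400 to 3747570 in WT. That sum was below WT in tRNA-Phe-2-1-/- livers too (2701490 to 2925830) but overlapped it in tRNA-Phe-3-1-/- livers (3270680 to 3876380). Endothelial markers summed to 6599 to 8994 in tRNA-Phe-1-1-/- livers beside 9394 to 10380 in WT. In tRNA-Phe-1-1-/- livers sums of neuron, astrocyte and oligodendrocyte markers were also below WT without overlap, while Kupffer, stellate and bile duct sums overlapped WT. The part of these programmes and cell markers in the members' differences was not tested.

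**Figure D4:**
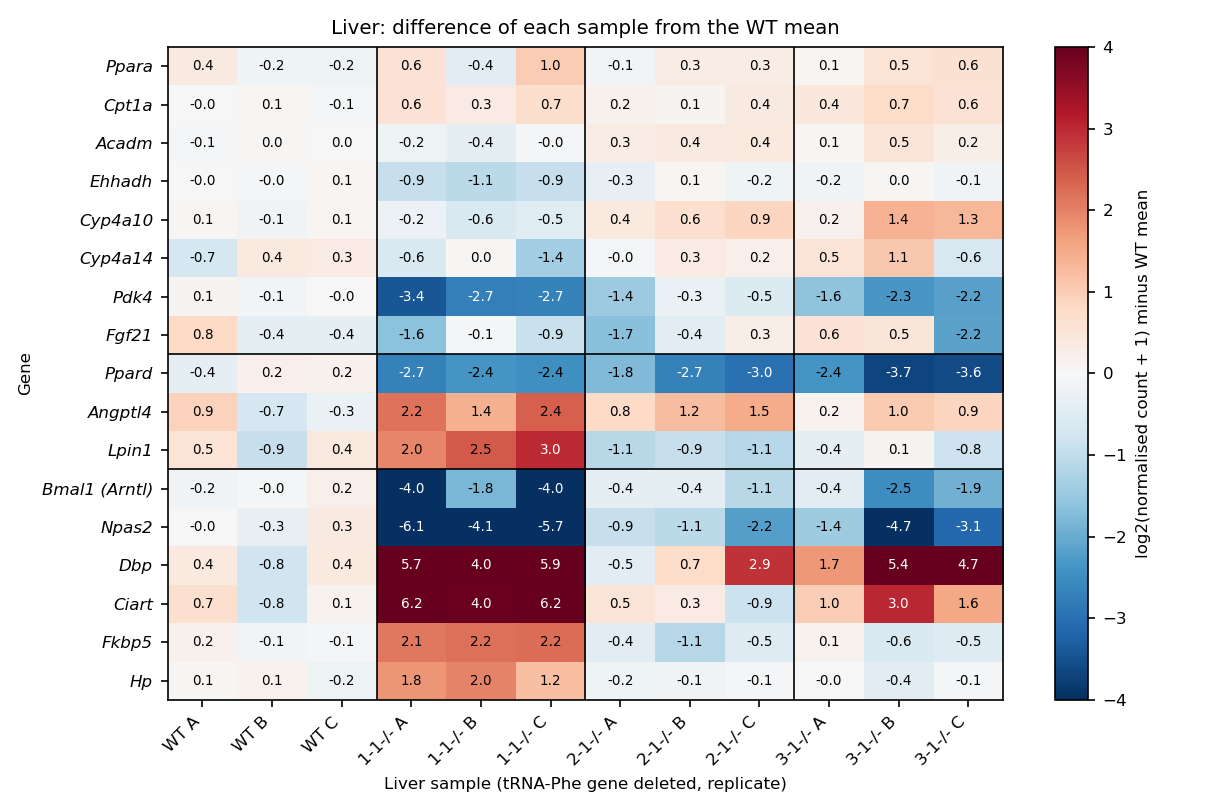
Difference of each liver sample (horizontal axis) from the WT mean, in log2(normalised count + 1), for the 8 members (top), 3 other pathway genes (middle) and 6 genes of the clock, glucocorticoid and acute phase programmes (bottom), with the value written in each cell and colour limited to 4 in either direction. Pdk4 and Ppard are below WT in all 9 knockout samples, Fkbp5 and Hp are above WT by more than 1 in the 3 tRNA-Phe-1-1-/- samples only, and Bmal1 is lowest in tRNA-Phe-1-1-/- samples A and C.

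In the brain 5 members passed the filter (a mean of 10 or more) and were tested, and 0 of 5 differed in any of the 6 comparisons or among the 4 genotypes by limma, edgeR or DESeq2, where 1.05% of the 19228 brain genes passed in tRNA-Phe-1-1-/- against WT, 0.634% among the 4 genotypes, 0.53% and 2.11% in tRNA-Phe-1-1-/- against the other lines and 0.0% in the remaining 3 comparisons. The count of members at an unadjusted p under 0.05 was 0 in each comparison with WT, where 15.9, 5.57 and 12.3% of all genes were in the 3 lines. Pdk4, the member that fell in the liver, was at 212, 191 and 242 normalised counts in WT brains, 118, 187 and 232 in tRNA-Phe-1-1-/-, 199, 191 and 271 in tRNA-Phe-2-1-/- and 227, 182 and 197 in tRNA-Phe-3-1-/- brains. One tRNA-Phe-1-1-/- sample was low and all groups overlapped, with a 95% interval of -0.81 to 0.20 for the log2 fold change in tRNA-Phe-1-1-/- brains, which leaves out a fall of the size measured in the liver of that line.

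Cpt1a gave 932, 852 and 858 normalised counts in WT, 938, 910.2 and 838 in tRNA-Phe-1-1-/-, 768, 749 and 973 in tRNA-Phe-2-1-/- and 802, 821 and 974 in tRNA-Phe-3-1-/- brains, all within one range, and its 95% interval in tRNA-Phe-1-1-/- brains was -0.23 to 0.27. Acadm was at 874, 888 and 889 in WT, 771, 961 and 948 in tRNA-Phe-1-1-/-, 956, 825 and 880.2 in tRNA-Phe-2-1-/- and 992, 896 and 1027 in tRNA-Phe-3-1-/- brains, the last group just above WT without overlap (adjusted p = 0.623). Of all brain genes 16.4% did not overlap WT in that line, in either direction. Ehhadh lay between 87.3 and 153, and Ppara between 58.7 and 162 normalised counts over the 12 samples, with overlap in every comparison. The log2 fold changes of the 5 members ranged from -0.31 to 0.18 in tRNA-Phe-1-1-/-, -0.09 to 0.43 in tRNA-Phe-2-1-/- and -0.09 to 0.31 in tRNA-Phe-3-1-/- brains.

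The remaining 3 members were at trace levels in the brain and were not tested. Cyp4a10 reached 9.41 normalised counts in WT replicate A and was listed at 0 in 7 of 12 samples, Cyp4a14 reached 8.12 in tRNA-Phe-2-1-/- replicate C, and Fgf21 stayed at or below 1.12. The 4 samples with the most Cyp4a14 (WT replicate A, tRNA-Phe-1-1-/- replicate A and tRNA-Phe-2-1-/- replicates B and C) were also the 4 with the most Alb, the liver's own gene, at 625, 851, 599 and 877 normalised counts, and the part of liver RNA in these traces was not tested.

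**Figure D5:**
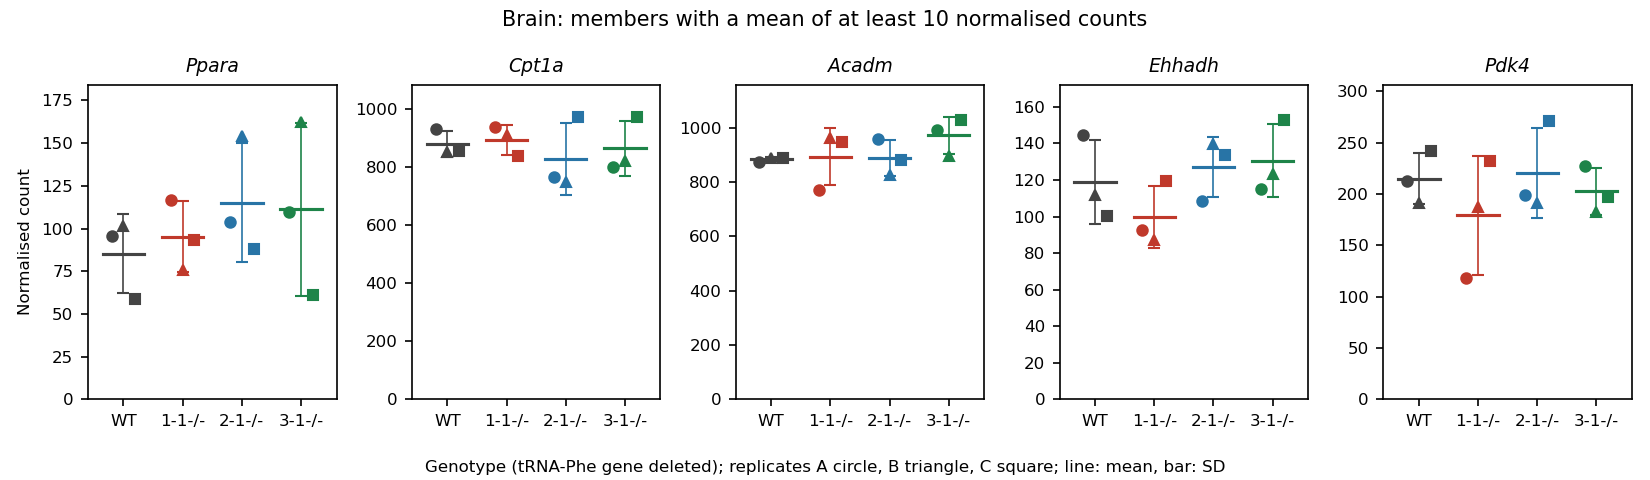
Normalised counts (vertical axes, from 0) of the 5 members tested in the brain, by genotype (horizontal axis); symbols mark replicates A, B and C, lines the means and bars the SD of 3 samples. The groups overlap for all 5 genes, except that the 3 tRNA-Phe-3-1-/- samples lie above WT for Acadm.

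Of the 89 other pathway genes, 82 were tested in the brain and 2 passed, both in tRNA-Phe-1-1-/- mice. Plin4, a coat protein of lipid droplets, gave 104, 75 and 84.7 normalised counts in WT and 588, 974 and 1025 in tRNA-Phe-1-1-/- brains (log2 fold change 3.25 ± 0.39 (SE), adjusted p = 0.0107), without overlap. Angptl4 gave 53, 50.7 and 57.6 in WT and 120.3, 177 and 145 in tRNA-Phe-1-1-/- brains (log2 fold change 1.42 ± 0.24 (SE), adjusted p = 0.0246), also without overlap and in the same direction as in the liver. These were lost in 2 and 5 of 23 alternatives, and the count was 0 without WT replicate C or tRNA-Phe-1-1-/- replicate C. Fkbp5 rose in the same brains (log2 fold change 1.54 ± 0.17 (SE), adjusted p = 0.00813). In these brains 3 of the 5 fasting and glucocorticoid genes tested, 2 of 10 clock genes in the phase of Dbp (Per2, log2 fold change 1.00 ± 0.16 (SE), adjusted p = 0.0202) and 1 of 3 acute phase genes (Lcn2, log2 fold change 5.30 ± 1.07 (SE), adjusted p = 0.0469) were higher, and the calls of Per2 and Lcn2 were lost in 4 and 15 of 23 alternatives. No gene of the other marker lists passed, but the summed oligodendrocyte markers were 39109.6 to 74755 normalised counts in tRNA-Phe-1-1-/- brains beside 103525 to 123154 in WT, and the summed skeletal muscle markers 171 to 226 beside 263 to 279, both without overlap. The muscle sum was below WT in tRNA-Phe-2-1-/- (210 to 255) and tRNA-Phe-3-1-/- brains (144 to 195) as well, while the oligodendrocyte sums of these lines overlapped WT. The part of these genes in the rise of Plin4 and Angptl4 was not tested. In the other 7 lists no gene passed. The genes with the lowest adjusted p in 6 of those were Cd36 (0.123), Abcd2 (0.151), Hadh (0.21), Cpt1c (0.222), Ppargc1a (0.263) and Aldh3a2 (0.829).

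Likeness to the members over the 12 liver samples was described by Pearson's r of log2(normalised count + 1) among 11354 protein-coding genes with a mean of at least 50, naming genes among the 3 highest, without a p because they were picked as the highest of many and the samples share genotypes. Ppara was most like Gys2 (r = 0.96), the liver glycogen synthase gene, then Ndufa8 (r = 0.94) and Pank1 (r = 0.92). For Cpt1a the first was Dbp (r = 0.91), a clock output gene, followed by Wipi2 (r = 0.90) and Osbpl9 (r = 0.90). Acadm was nearest to Tenm3 (r = 0.96), Grpel1 (r = 0.96) and Aqp1 (r = 0.96), and Ehhadh to Zfand5 (r = 0.99), Ethe1 (r = 0.97) and Plpp6 (r = 0.97). The hydroxylases differed from each other, Cyp4a10 being most like Diaph2 (r = 0.97), Zfp942 (r = 0.95) and Ier3ip1 (r = 0.95), and Cyp4a14 like Ptbp3 (r = 0.94), Slc35a1 (r = 0.91) and Chpf2 (r = 0.89). Pdk4 followed Nat10 (r = 0.94) and Dapk1 (r = 0.94), and Fgf21, the least closely matched, Pold3 (r = 0.84), Serpina7 (r = 0.82) and Glb1l (r = 0.80). None of the members was among the 3 nearest genes of another member.

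Since the deleted genes encode the tRNA for phenylalanine, the phenylalanine codons (TTT and TTC) of each member were counted in its canonical coding sequence (GENCODE). They made up 6.31% of the 507 codons of Cyp4a14, 5.89% of Cyp4a10, 5.3% of Cpt1a, 4.91% of Ppara, 4.61% of Pdk4, 4.51% of Acadm, 3.33% of Fgf21 and 3.2% of Ehhadh, beside a median of 3.74% over 21565 mouse genes. Of the transcripts that differed in tRNA-Phe-1-1-/- livers, Pdk4 and Cpt1a were above this median and Ehhadh below it. Cyp4a14, richest in these codons, was not called but had a wide interval. The part of these codons in the members' differences was not tested.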

How the data were processed

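The expression of 24 samples (brain and liver, 4 genotypes, 3 samples each) was taken from 1 table per tissue. The deposited values, used as a signal, were normalised counts that the authors made by trimming reads (Trim Galore, cutadapt), aligning them to GRCm38.p6 with STAR, quantifying with Salmon and dividing by DESeq2 size factors. Tables of the authors' comparisons (log2 fold changes and s-values) were not used. Dividing by the size of 1 read gave whole reads (within 0.01) for 100.0% of values. Symbols were matched for 93.2% of Ensembl identifiers.

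Genes with a mean of at least 10 in a tissue were tested with limma 3.58.1 (R 4.3.3) on log2(normalised count + 1), which understates the change of low genes, over the 12 samples of that tissue, with genotype as the only term, a variance trend, two-sided tests and Benjamini-Hochberg adjustment over all genes tested (threshold 0.05). A moderated F-test covered the 4 genotypes. Fits were tested on simulated data. The study's methods describe RNA from 3 or more mice per genotype, so replicates were taken as mice, although the labels do not tie a sample to an animal. No pair of replicates agreed within sampling noise (chi-square per degree of freedom of at least 14.1).

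The members, lists and tests were chosen with earlier results of these data known. Named were all members, up to 3 genes per pathway list with the lowest adjusted p past the threshold in any line against WT (or the lowest where none passed), the 3 genes most like each member, and marker genes that moved with a result. Some genes picked by this rule are not reported here. The marker lists covered hepatocytes, neurons, glia, Kupffer, stellate, endothelial, bile duct, fat, muscle and choroid plexus cells, the clock, fasting, the acute phase and stress. Alternatives were pseudocounts of 0.1 and 5, no filter and a mean of at least 50, quantile normalisation, trimmed mean rescaling, leaving out the variance trend, a block for replicate letters, only the genotypes compared, each replicate left out, and edgeR 4.0.16 (quasi-likelihood) and DESeq2 1.42.0 on recovered reads.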

Additional observations from a re-analysis of the deposited data

How the results depend on the processing

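Over 23 alternatives the number of members called in tRNA-Phe-1-1-/- livers against WT stayed at 3 or 4, and in the brain at 0 in every comparison. In tRNA-Phe-3-1-/- livers 2 members became 1 with no filter, no variance trend, only the genotypes compared or edgeR, and 0 to 3 without 1 replicate. In tRNA-Phe-2-1-/- livers 0 became 1 (Acadm) with only the genotypes compared, and comparing tRNA-Phe-2-1-/- livers with those of tRNA-Phe-3-1-/- mice, 0 became 1 (Pdk4) with DESeq2. The other pathway genes called in tRNA-Phe-1-1-/- livers numbered 17 to 29 over fits without 1 replicate. In tRNA-Phe-2-1-/- livers the 2 became 0 with no variance trend, 6 with only the genotypes compared, 9 with DESeq2 and 0 to 3 without 1 replicate. In tRNA-Phe-3-1-/- livers the 2 became 1, 6 and 0 to 5 with the last 3 of these. In the brain, leaving out a replicate gave 0 to 3 in tRNA-Phe-1-1-/- mice, and DESeq2 gave 1 in tRNA-Phe-3-1-/- mice. The cause of these shifts was not tested. Estimates that did not pass changed sign when a replicate was left out, over -0.19 to 0.36 (Cyp4a14, tRNA-Phe-2-1-/-), -0.0503 to 0.81 (Cyp4a14, tRNA-Phe-3-1-/-; -0.035 without WT replicate A) and -0.84 to 0.53 (Fgf21, tRNA-Phe-3-1-/-; 0.0297 without WT replicate A).

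The replicate letters were not treated as pairs, since not every same-letter pair correlated at over 0.1: deviations of same-letter samples correlated at -0.29 to 0.24 in the liver and -0.16 to 0.49 in the brain, and 2 and 7 of 12 samples were closest to their own letter. In the brain tRNA-Phe-2-1-/- samples did correlate with those of tRNA-Phe-3-1-/- mice at all 3 letters (0.13, 0.21 and 0.49). With the replicate block, 0 members were called in tRNA-Phe-3-1-/- livers, 3 in tRNA-Phe-1-1-/- and 0 in tRNA-Phe-2-1-/- livers, and 0 other pathway genes in tRNA-Phe-2-1-/- livers. With 3 samples a group, differences of Cyp4a14, Fgf21 and Ppara in the liver had wide intervals.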
